A study of Mus musculus with 10 samples.

Results

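Growth factors of the neurotrophin and GDNF families and their receptors were examined as 8 genes of a whole-brain RNA-seq table of 18444 genes. The members were chosen by name, though with earlier results of these data known. They were the ligands *Bdnf*, *Ntf3* and *Gdnf*, and the receptors *Ntrk2*, *Ntrk3*, *Ngfr*, *Sort1* and *Ret*. All 8 were matched to 1 row each by Ensembl gene identifier and all 8 passed the filter on low values. The study compared 5 *Arid1b* heterozygous (HT) mice with 5 wild-type (WT) mice to ask how the brain transcriptome differs when 1 copy of this chromatin remodeller gene is mutated. Every mouse was a male of strain C57BL/6N at postnatal day 3 (P3), and all pups came from crosses of HT males with WT females, so each had a WT mother. HT mice carried the em1Tcp allele, a single line in which CRISPR/Cas9 nickase editing of exon 5 introduced a protein-truncating germline mutation. Whole brain was sampled, so a level is an average over all brain cells, and fewer cells of a type cannot be told apart from less RNA per cell.

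Neurotrophins are secreted proteins made as longer precursors. The mature ligands bind Trk receptor tyrosine kinases, which signal through the Ras-ERK, PI3K-AKT and phospholipase C pathways to sustain survival, dendrite growth and synapse formation. The precursors bind instead a complex of the pan-neurotrophin receptor and sortilin, which can promote cell death or synapse retraction. GDNF belongs to another ligand family, binds a GFRα co-receptor held in the membrane, and signals through the RET kinase in dopaminergic, motor and enteric neurons.

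The ligands *Bdnf* and *Ntf3*, like the receptors *Ntrk2* and *Ntrk3*, are paralogues. Their most similar coding stretches are shown because a read that fits both copies could be credited to either. Each stretch is 90 bases of GENCODE M21 coding sequence on GRCm38, printed in the sense of the gene, with capitals at the bases that differ between the copies. *Bdnf* (chr2:109724035-109724124, plus strand, exon 2) and *Ntf3* (chr6:126101757-126101846, minus strand, exon 3) encode the mature growth factor there.
Bdnf: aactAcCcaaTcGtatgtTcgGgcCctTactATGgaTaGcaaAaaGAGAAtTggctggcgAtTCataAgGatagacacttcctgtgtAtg
Ntf3: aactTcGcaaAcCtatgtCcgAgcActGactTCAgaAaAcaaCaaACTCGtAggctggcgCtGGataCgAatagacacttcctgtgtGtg
*Ntrk2* (chr13:59054368-59054457, plus strand, exon 15) and *Ntrk3* (chr7:78250709-78250798, minus strand, exon 14) encode part of the kinase there.
Ntrk2: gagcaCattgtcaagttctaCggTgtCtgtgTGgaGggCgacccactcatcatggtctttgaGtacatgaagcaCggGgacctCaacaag
Ntrk3: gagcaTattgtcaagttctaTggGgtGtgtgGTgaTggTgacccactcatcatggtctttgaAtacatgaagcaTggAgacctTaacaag
The ligand pair shared 64 of the 90 bases (71.1%), with a longest identical run of 17 bases. The receptor pair shared 78 bases (86.7%), with a longest run of 23. Words of 31 bases were compared between transcripts in the sense direction only. In that direction neither pair shared a word. At most 1.26% of the words of any member, those of *Ngfr*, occurred in a transcript of another gene. Words shared with the opposite strand of another gene, as in the antisense overlaps that follow, were not counted. Exons of *Bdnf* overlapped the antisense gene *Gm45346* over 896 bases, and exons of *Sort1* overlapped the antisense gene *Gm12523* over 338 bases. The labels name a stranded library kit, but the strand setting of the quantification was not given in the sources used here.

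Each library held 27243506 to 29032442 normalised read counts in all. *Arid1b* was 2101 ± 343 (SD) in the 5 HT libraries and 3335 ± 203 in the 5 WT libraries, with every HT library below every WT library (exact permutation p = 0.00794, the smallest that 5 against 5 allows). The library HT 4 stood apart from the rest. Its score on the first principal component was 53.9 against -23.4 to 9.81 in the others, and its deviations from the gene means correlated with transcript length at a Spearman rho of -0.447 against -0.158 to 0.312 in the others. The cause was not tested, and member values are given with and without this library. HT 4 also had the lowest summed levels of the neuronal list (228920 against 238161 or more in WT) and of the forebrain list (17229 against 22389 or more in WT). Markers of neurons (10 of 10), astrocytes (10 of 10) and the oligodendrocyte lineage (10 of 10) were all present.

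No member differed between HT and WT past the threshold of the fit across all genes. Among the 17020 genes tested with limma, 0 passed a Benjamini-Hochberg adjusted p of 0.05 (0.0%), and the 8 members each had an adjusted p of 1.00. The mutated gene *Arid1b* did not pass either (log2 fold change -0.68, limma unadjusted p = 2.3e-05, adjusted p = 0.390). A gene that did not pass this fit was therefore not shown to be unchanged. At an unadjusted p of 0.05, 580 genes (3.41%) passed, 251 higher (1.47%) and 329 lower (1.93%) in HT, and 0 of the 8 members did. HT and WT libraries did not overlap in 107 genes (0.629%), among which there was no member. The median log2 fold change of the members, HT minus WT, was 0.033, against -0.0074 over all tested genes. Of the 8 members, 5 had a higher mean in HT, beside 46.4% of all tested genes. Without HT 4, 7 did so, beside 8437 of 17015 tested genes.

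**Figure D1:**
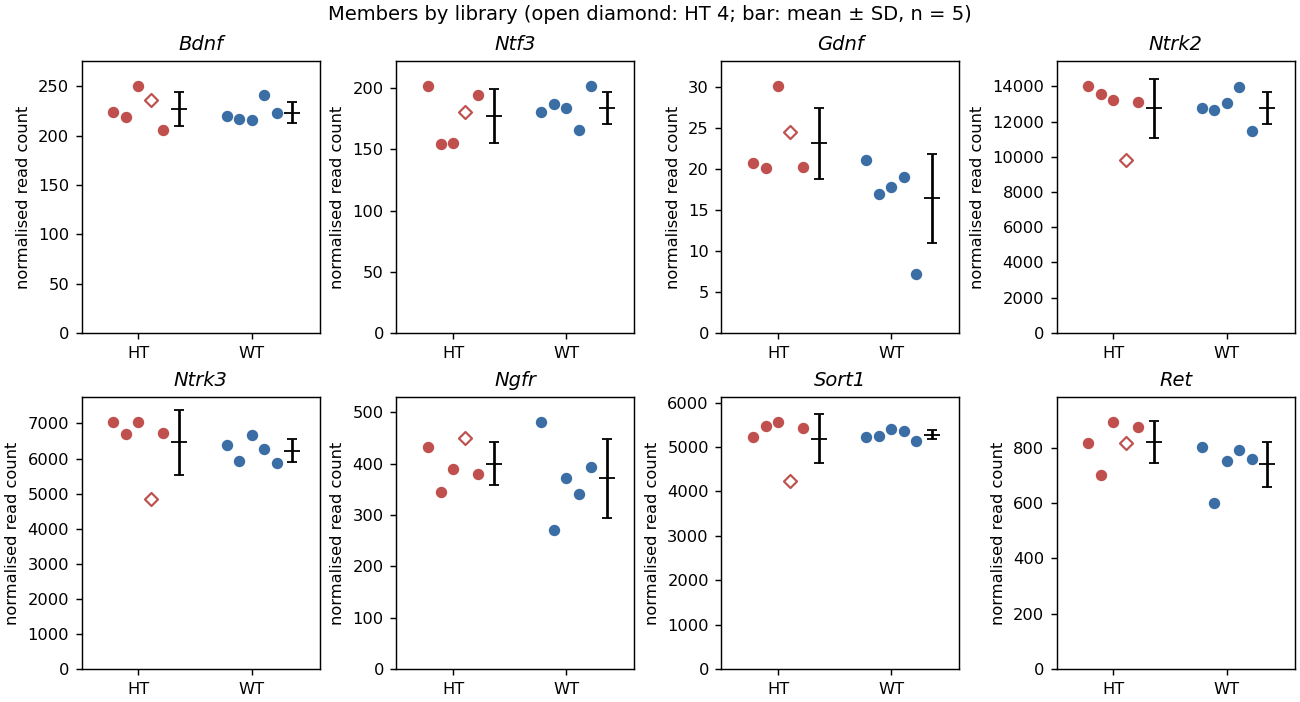
Normalised read count of each member (y axis, from 0) in the 5 HT and 5 WT libraries, with the mean and SD of each group as bars. The open diamond is HT 4, which is the lowest point for *Ntrk2* (9839), *Ntrk3* (4842) and *Sort1* (4234) and lies inside the range of the other HT libraries for *Bdnf*, *Ntf3*, *Gdnf* and *Ret*.

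*Bdnf* (ENSMUSG00000048482, chr2:109674700-109727007, plus strand) encodes brain-derived neurotrophic factor, whose release at active synapses supports their maturation. Its normalised read counts were 224, 219, 251, 236 and 206 in HT 1 to HT 5, and 220.0, 217, 216, 241 and 223 in WT 1 to WT 5. The groups overlapped, with every WT library between HT 5, the lowest, and HT 3, the highest. The fold change of HT over WT was 1.02 (95% interval 0.898 to 1.15) with an exact permutation p of 0.714, and the log2 fold change was 0.022, or 0.0073 when HT 4 was left out. With all libraries, *Bdnf* had the lowest pooled SD within groups of the members, 0.088 on the log2 scale, at the 17.8th percentile of tested genes. That rank depended on HT 4. Without it the SE of the log2 fold change was 0.089 for *Bdnf*, against 0.034 for *Sort1*, 0.042 for *Ntrk3* and 0.047 for *Ntrk2*. The other members had a larger SE than *Bdnf*. Transcript variants from the separate *Bdnf* promoters were summed in this table, so promoter use was not measured.

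*Ntf3* (ENSMUSG00000049107, chr6:126101412-126166910, minus strand) encodes neurotrophin 3, which supports proprioceptive neurons and is made in the young cortex and cerebellum. HT 1 to HT 5 had 202, 154, 155, 181 and 195 normalised read counts. WT 1 to WT 5 had 181, 187, 184, 166 and 202. HT 2 and HT 3 were the lowest of the 10 libraries, and HT 1 and WT 5 were equal at the top to within 1 count. The fold change was 0.961 (95% interval 0.821 to 1.12; exact permutation p = 0.548), which is -0.058 on the log2 scale, or -0.067 when HT 4 was left out. Leaving out other single libraries gave -0.11 (without HT 1) to -0.0099 (without HT 2).

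*Gdnf* (ENSMUSG00000022144, chr15:7810846-7837575, plus strand), encoding a survival factor for dopaminergic and motor neurons, had the lowest level and the largest difference among the members. HT 1 to HT 5 had 20.6, 20.1, 30.1, 24.4 and 20.3 normalised read counts. In WT 1 to WT 5 the values were 21.03, 16.9, 17.8, 19.0 and 7.13. All 5 HT libraries were above the WT mean of 16.4, but WT 1 lay above HT 1, HT 2 and HT 5, so the groups overlapped. The fold change was 1.45 (95% interval 0.942 to 2.22; limma unadjusted p = 0.0857), and the exact permutation p was 0.0317 before any adjustment over genes. On the log2 scale this was 0.53 ± 0.29 (SE), which became 0.51 on leaving out HT 4 and 0.28 on leaving out WT 5, the lowest library. Its pooled SD of 0.44 on the log2 scale was at the 88.5th percentile of tested genes, which leaves a wide interval.

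*Ntrk2* (ENSMUSG00000055254, chr13:58806569-59133970, plus strand) encodes TrkB, the BDNF receptor, which neurons make with a kinase domain and astrocytes mainly in a truncated form. HT 1 to HT 5 had 14033, 13563, 13207, 9839 and 13121 normalised read counts, and WT 1 to WT 5 had 12748, 12654, 13074, 13955 and 11468. HT 4 was the lowest of the 10 libraries and WT 5 the next lowest, while HT 1 was the highest. With all libraries the fold change was 0.992 (95% interval 0.869 to 1.13; exact permutation p = 0.960). The log2 fold change was -0.011 ± 0.088 (SE) with HT 4 and 0.079 ± 0.047 without it, so the sign turned when that library was left out, and the limma unadjusted p without it was 0.113. The gene has 7 coding transcripts of 2284 to 8744 bases, and the gene-level value does not separate the full-length from the truncated form.

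*Ntrk3* (ENSMUSG00000059146, chr7:78175959-78738012, minus strand) encodes TrkC, the receptor for neurotrophin 3, which also acts as a synaptic adhesion protein. The normalised read counts were 7045, 6700.0, 7036, 4842 and 6717 in HT 1 to HT 5, and 6391, 5941, 6673, 6259 and 5876 in WT 1 to WT 5. The HT libraries other than HT 4 were all above the highest WT library, and HT 4 was below the lowest. With all 10 libraries the log2 fold change was 0.043 ± 0.092 (SE), a fold change of 1.03 (95% interval 0.897 to 1.18; exact permutation p = 0.770). Without HT 4 it was 0.14 ± 0.042, with a limma unadjusted p of 0.00374 and an adjusted p of 0.447. *Ntrk3* was then the 1 member of 8 with an unadjusted p under 0.05, in a fit in which 8.38% of all tested genes had one (4.69% higher and 3.69% lower in HT) and 0.0118% passed the adjusted threshold. With the length trend of every library also removed, the log2 fold change without HT 4 was 0.12 (limma unadjusted p = 0.00345). Leaving out other single libraries gave 0.0085 (without HT 1) to 0.068 (without WT 3). Its 6 coding transcripts run from 423 to 19703 bases and include forms without the kinase, which were not separated here.

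*Ngfr* (ENSMUSG00000000120, chr11:95568818-95587735, minus strand) encodes the pan-neurotrophin receptor, a member of the tumour necrosis factor receptor family that is high in basal forebrain cholinergic neurons and in Schwann cells. Counts were 433, 345, 390.0, 450.4 and 380.2 in HT 1 to HT 5, and 482, 272, 372, 340.2 and 394 in WT 1 to WT 5. The highest and the lowest library were both WT (WT 1 and WT 2), and every HT library lay between them. The fold change was 1.09 (95% interval 0.893 to 1.33; exact permutation p = 0.460), and the log2 fold change went from 0.12 with all libraries to 0.015 without WT 2, 0.22 without WT 1 and 0.078 without HT 4.

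*Sort1* (ENSMUSG00000068747, chr3:108284082-108361511, plus strand) encodes sortilin, which sorts proBDNF into the secretory pathway and binds pro-neurotrophins at the cell surface. HT 1 to HT 5 had 5234, 5473, 5564, 4234 and 5419 normalised read counts, and WT 1 to WT 5 had 5229, 5255, 5409, 5351 and 5134. The WT libraries lay close together, with a coefficient of variation of 2.04%, against 10.5% in HT, where HT 4 was far below the rest. The fold change was 0.978 (95% interval 0.883 to 1.08; exact permutation p = 0.952). On the log2 scale this was -0.032, and 0.040 ± 0.034 (SE) once HT 4 was left out (limma unadjusted p = 0.259).

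*Ret* (ENSMUSG00000030110, chr6:118151745-118197718, minus strand) encodes the signalling kinase of the GDNF receptor complex. HT 1 to HT 5 had 818, 702, 894, 816 and 877 normalised read counts, and WT 1 to WT 5 had 801, 600.0, 754, 792 and 760. In 4 of the 5 HT libraries the value was above the highest WT library, with HT 2 inside the WT range and WT 2 lowest of all. The fold change was 1.11 (95% interval 0.970 to 1.27; limma unadjusted p = 0.117; exact permutation p = 0.159). Leaving out HT 4 gave a log2 fold change of 0.15, the same as with all libraries, and leaving out WT 2 gave 0.076.

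**Figure D2:**
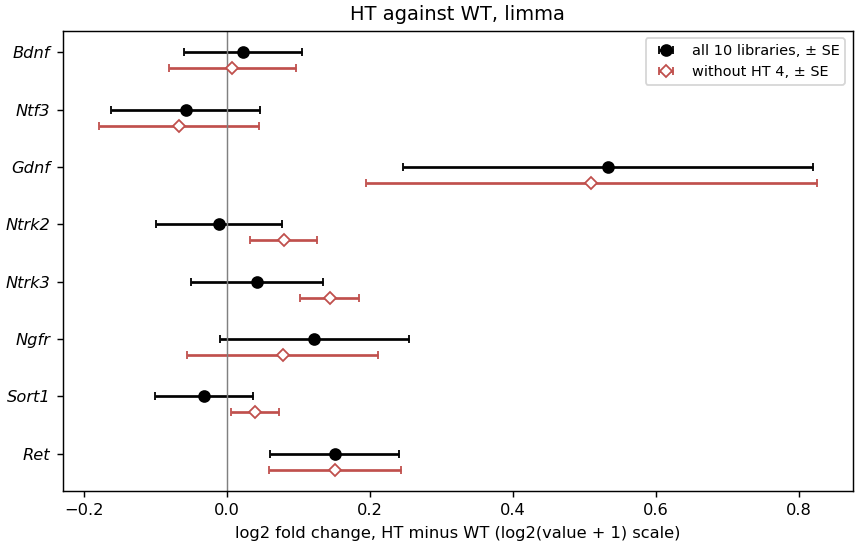
Log2 fold change of each member, HT minus WT (x axis), from limma on log2(value + 1), with all 10 libraries (filled circles) and without HT 4 (open diamonds); the bars are standard errors. Without HT 4 the estimate moves from 0.043 to 0.14 for *Ntrk3*, from -0.011 to 0.079 for *Ntrk2* and from -0.032 to 0.040 for *Sort1*, and *Gdnf* (0.53 and 0.51) has the widest error in both.

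Members varied over the libraries in different ways. *Ntrk2*, *Ntrk3* and *Sort1* were each lowest in HT 4, by 0.37, 0.38 and 0.30 on the log2 scale below the mean of the gene. In the same library *Ngfr* was 0.24 and *Gdnf* 0.36 above the mean of the gene, and *Bdnf*, *Ntf3* and *Ret* were within 0.072 of it. *Ngfr* and *Ret* were both lowest in WT 2, and *Gdnf* was lowest in WT 5.

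**Figure D3:**
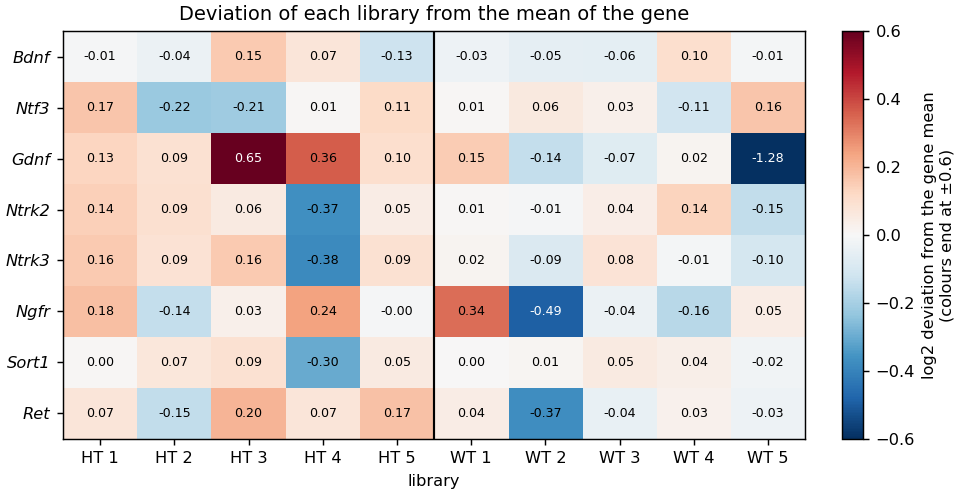
Log2 deviation of each library (columns, HT 1 to HT 5 and WT 1 to WT 5) from the mean over the 10 libraries of each member (rows), with the value in each cell; colours end at 0.6 on either side of 0. *Ntrk2*, *Ntrk3* and *Sort1* share a low value in HT 4 (-0.37, -0.38 and -0.30), and the extremes are *Gdnf* in WT 5 (-1.28) and in HT 3 (0.65).

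Levels of different genes were compared per kilobase, using the mean length of the coding transcripts of each gene. The receptors *Ntrk2*, *Ntrk3* and *Sort1* were the most abundant members: *Ntrk2* had 2884 ± 285 normalised read counts per kb (SD over the 10 libraries), *Ntrk3* 1270.4 ± 133 and *Sort1* 767 ± 54.8. These levels lay at the 95.1st, 86.7th and 77.8th percentiles of the tested genes, whose median was 235 per kb. *Ret* followed at 157 ± 17.1 per kb, *Ntf3* at 128 ± 12.3, *Ngfr* at 112 ± 17.5 and *Bdnf* at 57.2 ± 3.39. *Gdnf* was last at 5.37 ± 1.58 per kb, at the 2.39th percentile. The ranges of the 10 libraries overlapped between *Ret* and *Ntf3* and between *Ntf3* and *Ngfr*, so these neighbours were not separated beyond their spread; each of the other neighbours had ranges that did not overlap. The gap was 4.89-fold from *Sort1* to *Ret* and 10.6-fold from *Bdnf* to *Gdnf*.

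The order of the top 3 members depended on which length was used. With the longest coding transcript, *Sort1* (765 per kb) came before *Ntrk3* (322 per kb), and with the union of all exons *Sort1* (691 per kb) came before *Ntrk2* (662 per kb) and *Ntrk3* (210.4 per kb). *Bdnf* and *Gdnf* were the last members under each of the 3 lengths. Each ligand was below its kinase receptor per kb of mean coding length: *Bdnf* 57.2 against *Ntrk2* 2884, *Ntf3* 128 against *Ntrk3* 1270.4, and *Gdnf* 5.37 against *Ret* 157. The size of these gaps depended on the length used. With the union of all exons the pairs were 36.2 against 662, 105 against 210.4, and 5.37 against 116. With the longest coding transcript *Ntf3* was 122 against 322 for *Ntrk3*.

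**Figure D4:**
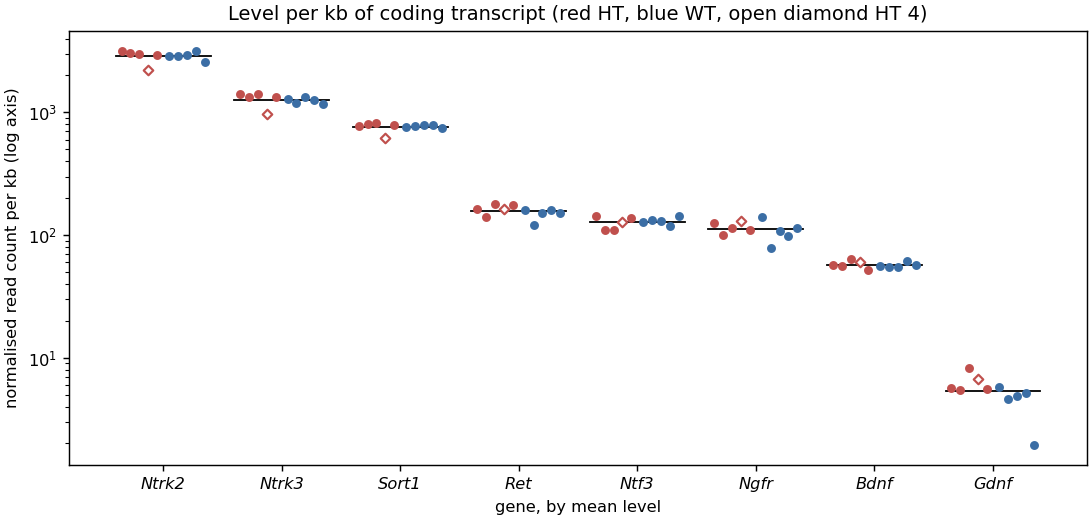
Normalised read count per kb of coding transcript (y axis, log scale) for each member in every library, ordered by the mean (line); HT is red, WT blue and HT 4 an open diamond. *Ntrk2* (mean 2884 per kb), *Ntrk3* (1270.4) and *Sort1* (767) stand above the other members, and *Gdnf* (5.37) stands below them.

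Ligand and receptor levels were also compared within each library, where a scale factor of the library cancels. The values are log2 ratios of normalised read counts, not corrected for length, and 7 pairs were tested with two-sided exact permutation tests. *Bdnf* to *Ntrk2* averaged -5.80 ± 0.26 (SD) over 5 HT libraries and -5.83 ± 0.089 over 5 WT libraries (exact permutation p = 0.833), and *Ntf3* to *Ntrk3* was -5.18 ± 0.30 and -5.08 ± 0.15 (exact permutation p = 0.532). *Gdnf* to *Ret* was -5.10 ± 0.20 in HT and -5.49 ± 0.60 in WT, a difference of 0.38 that did not pass (exact permutation p = 0.167) and that was 0.12 without WT 5. *Ngfr* to *Ntrk2* differed by 0.13 with all libraries and by -0.0017 without HT 4. *Ngfr* to *Sort1* differed by 0.15, which was 0.038 without HT 4 and 0.26 without WT 1. *Bdnf* to *Ntf3* differed by 0.080 (-0.0015 without HT 3) and *Ntrk2* to *Ntrk3* by -0.054. The *Ntf3* to *Ntrk3* difference of -0.10 was -0.21 without HT 4 and -0.021 without HT 3. The Trk pair was the tightest ratio, with an SD of 0.047 in HT and 0.084 in WT, and HT 4 did not stand out in it: leaving it out gave a difference of -0.064. None of the 7 pairs passed, and the lowest Benjamini-Hochberg adjusted value of the exact permutation tests was 0.630.

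Among the other ligands of the families, *Nrtn*, encoding neurturin, was 9.44 to 33.9 over the HT libraries and 10.5 to 23.3 over the WT libraries, and it did not pass (limma unadjusted p = 0.626). *Artn*, encoding artemin, was under the filter at 8.83 ± 3.12 and 8.59 ± 5.20, and *Ntf5*, *Pspn* and *Gdf15* were not analysed here. *Nrtn* was highest in HT 4, at 33.9, and its log2 fold change went from 0.17 to -0.058 without that library.

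Of the 11 other receptors and co-receptors tested, 0 passed the adjusted threshold. Beside 3.41% of all tested genes, 1 of the 11 (9.09%) had an unadjusted p under 0.05. It was *Rtn4r*, encoding the Nogo receptor that pairs with the pan-neurotrophin receptor, at 945, 928, 940.5, 1045 and 1024 in HT 1 to HT 5 and 856, 946, 891, 884 and 890.3 in WT 1 to WT 5. WT 2 overlapped the HT libraries, and the other WT libraries were below all of them (log2 fold change 0.13 ± 0.055 (SE), limma unadjusted p = 0.0383, adjusted p = 1.00), and without HT 4 it was 0.10 with an unadjusted p of 0.0732. *Lingo1*, the third part of that complex, had a log2 fold change of -0.036. The GDNF-family co-receptors *Gfra1*, *Gfra2* and *Gfra4* had log2 fold changes of 0.039, 0.071 and 0.038, and *Ncam1*, an alternative GDNF receptor, had -0.020. The sortilin relatives *Sorcs1*, *Sorcs2*, *Sorcs3* and *Sorl1* had -0.012, -0.049, 0.12 and -0.072, and *Sorcs3* was 0.18 without HT 4 (limma unadjusted p = 0.0114, adjusted p = 0.470). *Sorcs1*, *Sorcs2* and *Sorcs3* were each lowest among the HT libraries in HT 4, as *Sort1* was. *Gfra3* and *Gfral* were not analysed here.

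Proteases that cut the precursors came next. Of the 12 genes tested for processing, 2 (16.7%) had an unadjusted p under 0.05, beside 3.41% of all tested genes, and both were lower in HT. *Pcsk6* was 371 ± 16.9 in HT and 415 ± 27.3 in WT (log2 fold change -0.16 ± 0.070 (SE), limma unadjusted p = 0.0405). *Furin*, the Golgi convertase that cleaves proBDNF, was 1138 ± 51.5 in HT and 1236 ± 57.7 in WT (-0.12 ± 0.053, limma unadjusted p = 0.0427). In each the libraries of the groups overlapped: WT 5 was inside the HT range for *Pcsk6*, and HT 1 and HT 5 were inside the WT range for *Furin*. *Pcsk2* and *Pcsk5* had log2 fold changes of 0.073 and 0.054. Without HT 4 the limma unadjusted p was 0.0260 for *Pcsk6* and 0.0718 for *Furin*, and the log2 fold change was 0.11 for *Pcsk2* (limma unadjusted p = 0.00969, adjusted p = 0.464) and 0.11 for *Pcsk5*.

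Downstream of the receptors, 30 adaptors, 28 kinases and other cascade genes and 18 brakes were tested, and 0 passed the adjusted threshold. An unadjusted limma p under 0.05 was reached by 1 adaptor (3.33%) and 1 cascade gene (3.57%). These shares were close to the 3.41% of all tested genes. The adaptor *Shc1*, which couples activated Trk receptors to Ras, was 386 ± 20.8 in HT and 431 ± 21.7 in WT (log2 fold change -0.16 ± 0.067 (SE), limma unadjusted p = 0.0350, and 0.0601 without HT 4). *Shc2*, its neuronal relative, had 0.078, and the adaptors *Ngef* and *Crkl* had 0.055 and -0.064. *Mapk7*, encoding ERK5, the kinase that carries neurotrophin signals back from the axon, had 1618, 1729, 1783, 1699.7 and 1733 normalised read counts in HT 1 to HT 5 and 1825, 1896, 1921, 1799.9 and 1909 in WT 1 to WT 5. Every HT library was below every WT library (log2 fold change -0.13 ± 0.046, limma unadjusted p = 0.0162, adjusted p = 1.00). The groups did not overlap in 0.629% of all tested genes. *Pik3ca*, *Hras* and *Akt2* had log2 fold changes of 0.11, 0.074 and -0.064. Without HT 4, *Pik3ca* was 0.18 (limma unadjusted p = 0.000819, adjusted p = 0.352) and *Hras* -0.010. None of the 18 brakes had an unadjusted p under 0.05 (*Slitrk1* 0.045, *Dusp6* 0.032, *Cblb* -0.16 and *Ptpn1* -0.060 on the log2 scale). Without HT 4, 1 brake did, beside 8.38% of all tested genes. In that fit *Slitrk1*, a synaptic adhesion gene placed in the list of brakes, was 0.11 (limma unadjusted p = 0.0247, adjusted p = 0.534). *Cblb* was -0.045 and *Ptpn1* -0.023.

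Among 14 genes known to respond to neurotrophin signalling, 3 (21.4%) had an unadjusted p under 0.05, in both directions, beside 3.41% of all tested genes. *Npy*, encoding neuropeptide Y, whose level in interneurons depends on BDNF, was 1134, 1186, 1293, 1287 and 1395 in HT 1 to HT 5 and 920.5, 1013, 1067, 1157 and 1222 in WT 1 to WT 5. HT libraries were mostly higher, with WT 4 and WT 5 inside the HT range (log2 fold change 0.23 ± 0.082 (SE), limma unadjusted p = 0.0146). *Nptx2*, encoding a secreted pentraxin that gathers AMPA receptors at synapses, had 0.23 ± 0.089 (limma unadjusted p = 0.0230) and 0.17 without HT 4, its highest library (limma unadjusted p = 0.0508). *Etv5*, encoding an ETS factor induced by GDNF and other receptor kinases, had 1345, 1319, 1244, 1231 and 1368 in HT 1 to HT 5 and 1521, 1423, 1502, 1427 and 1409 in WT 1 to WT 5. All HT libraries were below all WT libraries (-0.16 ± 0.051, limma unadjusted p = 0.00683, adjusted p = 1.00), beside 0.629% of all tested genes without overlap of the groups. *Cort* had -0.12 with an SE of 0.20.

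Over the 115 pathway genes tested, 8 had an unadjusted p under 0.05 (6.96%), 3 higher and 5 lower in HT, beside 3.41% of all tested genes, and 0 passed the adjusted threshold. Without HT 4, 8 were higher and 4 lower at that p, beside 4.69% and 3.69% of all tested genes. The median log2 fold change was -0.030 with 46 of 115 genes higher in HT (40.0%, beside 46.4% of all tested genes). Without HT 4 it was 0.017 with 68 higher, beside 8437 of 17015 tested genes, so the balance of directions turned on that library.

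**Figure D5:**
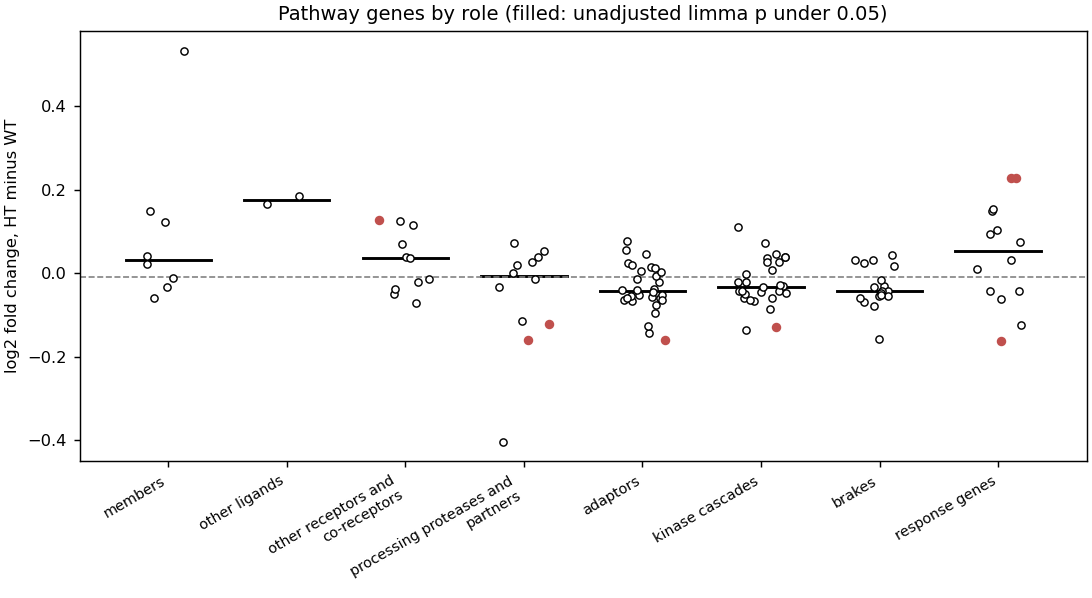
Log2 fold change, HT minus WT (y axis), of the 8 members and of the other pathway genes by role (x axis), 1 point a gene, with the median of each list as a line and the median of all tested genes dashed. Filled points have an unadjusted limma p under 0.05; there are none among the members or the brakes and 3 among the response genes, and *Gdnf* (0.53) is the highest point.

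Markers of cell types that carry these receptors were measured beside them, and their part in the values was not tested. Of the sensory ganglion list, where *Ntrk3*, *Ret* and *Ngfr* are high, 8 of 9 tested genes had a higher mean in HT (5 of 9 without HT 4), with a summed level of 2615 to 3067 in HT and 2405 to 2773 in WT, and the nociceptor gene *Trpv1* was low at a mean of 11.7. The dopaminergic list, which bears on *Gdnf* and *Ret*, had 6 of 9 higher (5 of 9 without HT 4), with 3007 to 3539 in HT and 3140.4 to 3492 in WT. The cholinergic and motor list, which bears on *Ngfr* and *Ret*, had 9 of 9 higher, with 3193 to 3808 in HT and 3165 to 3516 in WT, and 6 of 9 higher without HT 4. The oligodendrocyte lineage list had 8 of 10 higher (5 of 10 without HT 4), with 13545 to 19648 in HT and 13693 to 16132 in WT, HT 4 being the highest. The astrocyte list, which bears on truncated *Ntrk2*, had 6 of 10 higher (4 of 10 without HT 4), with 46300 to 51553 in HT and 41785 to 51556 in WT. The remaining lists were mixed: 6 of 10 neuronal, 5 of 8 GABAergic, 6 of 6 erythroid and 4 of 8 Schwann genes were higher in HT. So were 1 of 8 glutamatergic, 0 of 8 forebrain and 0 of 10 microglial genes, and 2 of 10 each for endothelial and mural, meningeal and cerebellar genes. Without HT 4, 9 neuronal, 6 glutamatergic, 4 forebrain and 3 Schwann genes were higher. Over all tested genes, 46.4% had a higher mean in HT. The sums of all these lists overlapped between the groups. Choroid plexus was the list whose sums did not overlap: 6977 to 9923 in HT and 10540 to 14269 in WT, with 0 of 8 genes higher. Most of these sums came from 1 gene, *Ttr*, with a mean of 9649 over all libraries. Among single genes, the groups did not overlap in 0.629% of all those tested.

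For each member the tested genes with the most similar profile over the 10 libraries were found by Pearson's r of log2 values among 17019 candidates, as a description with no test, since all points share the same 10 libraries. *Ntrk3* had the closest partners, *Abca3* (r = 0.993, and 0.984 without HT 4) and *Dnajc5* (0.993 and 0.977). *Ntrk2* was nearest to *Lsamp* (0.982 and 0.938) and *Sept11* (0.980 and 0.938). *Sort1* was nearest to *Strn* (0.983 and 0.877) and *Plppr4* (0.982 and 0.808), so the likeness of these 3 receptors to their partners was lower without HT 4. *Ret* was nearest to *Pax8* (0.955 and 0.963) and *Mobp* (0.934 and 0.934). *Ngfr* was nearest to *Sart3* (0.895) and *D030046N08Rik* (0.885), *Gdnf* to *Rtkn2* (0.927) and *Wfdc3* (0.913), *Ntf3* to *Cngb1* (0.928) and *Smad6* (0.870), and *Bdnf* to *Gm44949* (0.902) and *Hddc3* (0.884).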

How the data were processed

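RNA from 5 HT and 5 WT whole brains, 1 mouse per library, was sequenced as poly-A mRNA. The authors quantified reads with Salmon (1.1.0) on GRCm38 with GC bias correction, imported gene-level values with tximport and divided them by DESeq2 (1.30.1) size factors; the deposited values are these normalised read counts (unit: signal), not raw counts. The R version is 4.1.1 in the submitters' processing notes and differs in the published methods; the annotation release and any filter on low genes were not given in the sources used here. Whole reads could not be recovered from the values (2 of 3355 values between 0 and 4 were shared within a library, tolerance 1e-06), so no count model was fitted and counting error was not estimated.

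Of 18444 genes, 18431 matched GENCODE M21, which gave symbols, coordinates and lengths. Genes with a mean of at least 10 (17020; 1424 left out) were tested on log2(value + 1) with limma (3.58.1, trend and robust empirical Bayes, R 4.3.3) and Benjamini-Hochberg adjustment at 0.05; fold changes are on that scale, which understates those of low genes. Single values also had two-sided exact permutation tests over 252 assignments. The same sources do not tie mice to litters. On simulated data for HT against WT (16952 genes), the fit recovered 88.8% of the 98 that had been set to a 2-fold change, 58.0% of the 100 set to 1.5-fold, and called 5 of the 16754 left alone. The simulated noise was drawn separately for each gene and library, so no simulated library stood apart as HT 4 did. These shares can therefore overstate recovery in the real data, where *Arid1b* had a limma adjusted p of 0.390.

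The members, gene lists and tests were chosen with earlier results of these data known. Named genes are the members, the other ligands and receptors, the 2 genes with the smallest p in each direction of each further list, the 2 closest profiles of each member, and *Arid1b*; of these, 2 genes are left unreported. Other marker and pathway genes in the text were named after their values were seen. Alternatives covered the pseudocount, filter, scaling, robust step, sample weights, replicate block, a length trend and leaving out each library. Replicate numbers were checked as pairs. Deviations of same-numbered libraries correlated at 0.0815 to 0.0926 for numbers 1, 2, 3 and 5, and at -0.104 for number 4. Mean correlations with other numbers were -0.0220 to -0.0196 for those first numbers and 0.0227 for number 4. The main fit did not take the numbers as pairs, and a fit with them as a block is given below.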

Additional observations from a re-analysis of the deposited data

Results flagged for a closer look

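In groups of 5 libraries, a highest or lowest library was singled out when its gap to the nearest other library exceeded 0.71 of the whole range of the group. Chance singles out about 1 in 20 groups, so 4.8 of the 96 groups checked would be reached by chance. In all 13 were, and HT 4 was the library in 9 of them. The groups reused the same 10 libraries, and the ratios reused member values, so the groups were not independent. The 13 are therefore not a count of separate outlying libraries. No explanation was tested.

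Among the receptors, HT 4 was lowest in HT for *Ntrk2* (gap 0.782 of the range), *Ntrk3* (0.843) and *Sort1* (0.752). The sortilin relatives *Sorcs1* (0.868) and *Sorcs2* (0.720), the convertase *Pcsk5* (0.816), the synaptic adhesion gene *Slitrk1* (0.845), the ubiquitin ligase gene *Cblb* (0.826) and *Arid1b* (0.735) had HT 4 lowest in the same way. In WT, *Bdnf* had a high WT 4 (0.718) and *Ret* a low WT 2 (0.765). WT 5 was the highest library for the *Bdnf* to *Ntrk2* log2 ratio (0.727) and the lowest for the *Gdnf* to *Ret* log2 ratio (0.825).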

How the results depend on the processing

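No member passed the adjusted threshold under any alternative; the lowest limma adjusted p was 0.447 for *Ntrk3*, and from 0.691 (*Ntrk2*) to 0.976 (*Bdnf*) for the others. Over all tested genes 0 passed with all libraries, 2 with sample weights, 1 with the length trend removed, and 0 to 2 when single libraries were left out, 2 being without HT 4; *Arid1b* was among them each time. Leaving out single libraries gave log2 fold changes of -0.014 to 0.056 for *Bdnf*, -0.050 to 0.079 for *Ntrk2*, 0.0085 to 0.14 for *Ntrk3* and -0.059 to 0.040 for *Sort1*. The range was -0.11 to -0.0099 for *Ntf3*, 0.28 to 0.64 for *Gdnf*, 0.015 to 0.22 for *Ngfr* and 0.076 to 0.21 for *Ret*. Sample weights turned *Ntrk2* to 0.049, *Sort1* to 0.029, *Gfra4* to -0.019, *Ncam1* to 0.050 and *Sorcs1* to 0.019. The length trend turned *Ntrk2* to 0.00590 and *Sorcs1* to 0.00639. Leaving out single libraries also turned *Nrtn* (-0.058 to 0.38), *Gfra1* (-0.019 to 0.11), *Gfra4* (-0.033 to 0.0865), *Ncam1* (-0.060 to 0.068), *Sorcs1* (-0.071 to 0.051), *Sorl1* (-0.12 to 0.022), *Lingo1* (-0.065 to 0.0079), *Hras* (-0.010 to 0.12) and *Dusp6* (-0.021 to 0.063), and the log2 ratios *Bdnf* to *Ntrk2* (-0.072 to 0.081), *Ngfr* to *Ntrk2* (-0.0017 to 0.23) and *Bdnf* to *Ntf3* (-0.0015 to 0.15). None of these values passed the threshold, and the cause of the turns was not tested. Per kb, the longest coding transcript placed *Sort1* at rank 2 and *Ntrk3* at 3; the exon union placed *Sort1* at 1, *Ntrk2* at 2, *Ntrk3* at 3, *Ngfr* at 5 and *Ntf3* at 6. *Gdnf*, *Nrtn* and *Cort* gave no value under a mean of at least 100.

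Replicate numbers were not shown to pair the libraries, although 4 of 5 HT libraries correlated best with their own number. With the replicate block, 0 genes passed and 558 had an unadjusted p under 0.05, against 580 without it; *Ret* had an unadjusted limma p of 0.0437 with the same log2 fold change, 0.15.

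Alternatives chosen after seeing the data joined the length trend with the block (1 gene passed; *Ntrk2* 0.00590, *Sorcs1* 0.00639) or with leaving out HT 4 (2 genes passed; *Bdnf* -0.0095, *Ntrk2* 0.057, *Nrtn* -0.028, *Gfra4* -0.00061, *Ncam1* 0.056, *Sorcs1* 0.024, *Lingo1* 0.0027). *Gdnf* had the widest interval of the members, 0.942-fold to 2.22-fold; counting error was not estimated.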
